A study of Mus musculus with 79 samples.

Results

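The metallothionein genes MT1 and MT2, the zinc exporter gene SLC30A1 and the gene of the zinc-sensing transcription factor MTF1 were followed through mouse T helper 17 (Th17) cultures. These are 4 of the 20465 genes in the deposited table and 4 of the 10672 that reached 1 TPM (an abundance scaled for transcript length and for the size of the library) in at least 4 libraries. They were picked from these same data because MT1 and MT2 changed strongly with EGCG and with the sort for division. Their values in those contrasts are therefore given as a description, with no test. MT1, MT2 and MTF1 reached 1 TPM in all 78 libraries used. SLC30A1 reached it in 4 libraries, 2 of Th17n DHEA Total, 1 of Th17n DHEA Div.1 and 1 of Th17n methanol Div.1, and passed the filter only through these.

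Metallothioneins are small cysteine-rich proteins that bind zinc, copper and cadmium and buffer free metal in the cytoplasm. Their genes are switched on when MTF1 binds zinc and then the metal response elements of their promoters, and glucocorticoids and oxidative stress also raise them. SLC30A1, another classical MTF1 target, encodes the zinc exporter of the plasma membrane. In T cells, activation brings zinc into the cell, and metallothionein abundance follows the labile zinc pool.

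Mouse T cells were labelled with CFSE, a dye that is diluted with each division. They were polarised to a pathogenic state (Th17p) by IL1b, IL6 plus IL23, or to a non-pathogenic state (Th17n) by TGFb plus IL6. Cultures of each state were given 20 µM EGCG, the main catechin of green tea, or DMSO as its solvent, and 50 µM DHEA or methanol as its solvent. RNA came from unsorted cells (Total) and from cells sorted after 1 division (Div.1), so that Total libraries could also contain cells of 1 division. The 16 groups of condition, treatment and sort held 5 libraries each, except 4 in Th17p DMSO Div.1 and 4 in Th17n DMSO Div.1, and the labels describe 5 mice per condition. Strain, genotype, age and the tissue the T cells came from are not given in the sources used here. The label of well A4 reads Th17n DMSO Div.1, whereas its row neighbours in columns 1 to 5 are all Th17p DMSO Div.1, so it was not used (MT1 161 TPM, MT2 45.5 TPM, SLC30A1 0.553 TPM, MTF1 3.87 TPM).

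TPM values do not carry the sequencing depth, and counting intervals are therefore not given. The labelled cell type held against its markers: CD3E lay between 89.3 and 174 TPM and CD4 between 67.9 and 186 TPM. IL17F, a Th17 cytokine gene, ran from 96.7 to 8147 TPM. CD8A reached at most 0.557 TPM and CSF1R at most 0.344 TPM in any library. ADGRE1 and CD68 were not analysed here. In bulk libraries such as these, fewer cells of a type and less RNA per cell cannot be told apart.

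MT1 and MT2 are neighbours on mouse chromosome 8 of the mm10 build. MT2 spans 94172664 to 94173568 and MT1 spans 94179082 to 94180327, both on the plus strand, with 5513 bases between them. SLC30A1 lies at 191906767 to 191913247 of chromosome 1 and MTF1 at 124802104 to 124849800 of chromosome 4, both on the plus strand.

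Because the data turn on genes that MTF1 is known to control, the core of the metal response element was looked up around their starts. The core was searched as TGCACNC and TGCGCNC on both strands of the RefSeq windows (GRCm38.p6) from 250 bases before to 50 bases after a gene's start, and matches that overlapped on opposite strands were counted separately. The MT1 window held 3 matches, MT2 held 4, SLC30A1 held 2 and MTF1 held 0, and the windows of MT3 and MT4, the metallothionein genes beside them, held 1 each. Of 32851 windows of 300 bases, 25.7% held at least 1 match, 7.11% at least 2, 1.97% at least 3 and 0.517% at least 4. The matches of MT1, MT2 and SLC30A1 are shown with 9 bases on either side, 5′ to 3′ on the strand that carries the match, with the core in capitals.
MT1 chr8:94179057-94179081, plus strand: gtcccgctgTGCACACtggcgctcc
MT1 chr8:94179082-94179106, plus strand: agggagctcTGCACTCcgcccgaaa
MT1 chr8:94179100-94179124, plus strand: cccgaaaagTGCGCTCggctctgcc
MT2 chr8:94172386-94172410, plus strand: catcgcctcTGCACCCggcccctcg
MT2 chr8:94172481-94172505, plus strand: cagacccttTGCGCTCagctccttt
MT2 chr8:94172559-94172583, minus strand: gacagagccTGCACACgccctcccc
MT2 chr8:94172613-94172637, minus strand: ccctgggccTGCGCACgacccgaat
SLC30A1 chr1:191906729-191906753, minus strand: actttgcttTGCACTCggaaccccc
SLC30A1 chr1:191906802-191906826, minus strand: cgcggcgacTGCGCTCggcccggag

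The first MT1 match and all 4 MT2 matches lie before the annotated start of their gene in GENCODE, and the other 2 MT1 matches lie inside the gene. A match is a run of letters and not a measured binding site.

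Whether the 2 metallothioneins were counted cleanly was checked on the GENCODE transcripts. None of the 1273 stretches of 31 bases in the MT1 transcripts occurred in any other gene, and MT1 and MT2 shared 0. Of 573 such stretches of MT2, 333 (58.1%) occurred elsewhere, 330 of them in Gm45774, an antisense gene that overlaps MT2 on 749 bases and was not analysed here. For SLC30A1, 8.38% were shared with the antisense gene 1700034H15Rik, and for MTF1, 7.77% with 1110065P20Rik, a coding gene that runs into its end from the opposite strand. Whether the libraries kept strand is not stated, so reads of MT2 and of its antisense gene cannot be told apart.

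**Figure D1:**
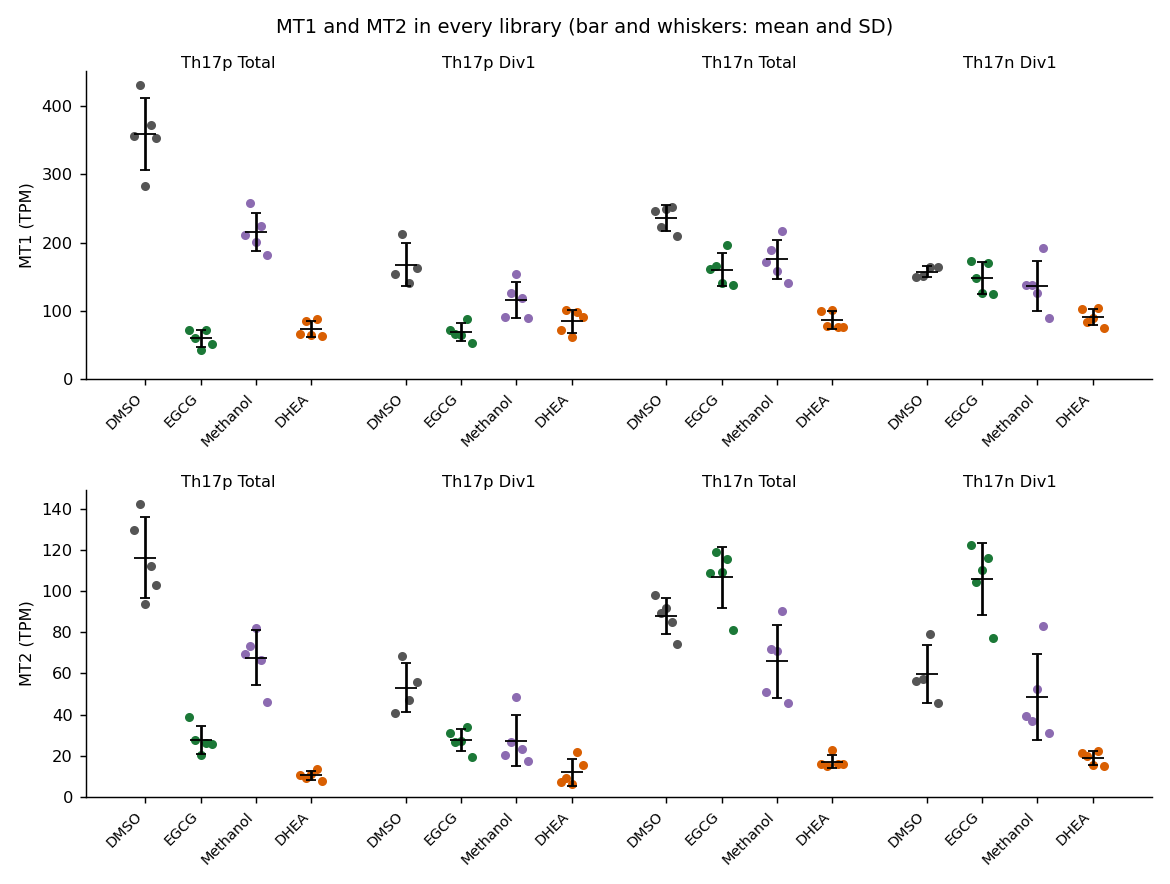
TPM of MT1 (top) and MT2 (bottom) in each of the 78 libraries, by condition, sort and treatment; points are libraries, bars and whiskers the mean and SD of 4 or 5 libraries. Th17p DMSO Total is highest for both genes, and DHEA groups lie at the bottom for MT2 in every condition and sort.

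MT1 was the more abundant metallothionein, with a range of 42.97 to 431 TPM and a median of 138 TPM over the libraries, against 6.44 to 142 TPM and a median of 45.5 TPM for MT2. SLC30A1 stayed between 0.277 and 1.19 TPM, and MTF1 between 2.30 and 4.36 TPM. The order of the MT1 group means ran from 359 TPM in Th17p DMSO Total down to 59.4 TPM in Th17p EGCG Total. Ranges of groups next to each other in that order overlapped in 14 of 15 cases, and Th17p DMSO Total was the exception, with its lowest library at 282 TPM above the highest of Th17n DMSO Total at 252 TPM. For MT2 the order ran from 116 TPM in Th17p DMSO Total to 10.5 TPM in Th17p DHEA Total, and neighbouring ranges overlapped in 15 of 15 cases.

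In unsorted pathogenic cells, MT1 was far lower with EGCG than with DMSO. The 5 Th17p DMSO Total libraries held MT1 at 356, 431, 282, 372 and 354 TPM (359 ± 53.2, mean ± SD, n = 5). The 5 with EGCG held 71.1, 59.6, 42.97, 71.8 and 51.4 TPM (59.4 ± 12.5, n = 5). The highest EGCG library thus lay below the lowest DMSO library, and the difference was -2.59 on the log2(TPM + 1) scale (SE 0.15), a level 6.02-fold lower. After 1 division the gap was smaller: 154, 212, 141 and 163 TPM in DMSO (168 ± 30.9, n = 4) against 71.5, 65.7, 64.8, 87.9 and 52.6 TPM in EGCG (68.5 ± 12.8, n = 5), a difference of -1.28 (SE 0.16), again without overlap.

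Non-pathogenic cells kept most of their MT1 with EGCG. Th17n DMSO Total libraries had 246, 223, 249, 252 and 209 TPM (236 ± 19.1, n = 5), and EGCG libraries had 161, 165, 141, 197 and 138 TPM (160 ± 23.8, n = 5). Those ranges did not overlap, and the difference was -0.56 (SE 0.15). In Th17n Div.1 cells the DMSO values of 149, 151, 164 and 163 TPM (157 ± 8.08, n = 4) fell inside the EGCG range of 172, 147, 125, 171 and 125 TPM (148 ± 23.2, n = 5), with a difference of -0.10 (SE 0.16).

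MT2 was lower with EGCG in the pathogenic cells, as MT1 was, and higher on average in the non-pathogenic ones. In Th17p Total it was at 130, 142, 93.9, 112 and 103 TPM with DMSO (116 ± 19.7, n = 5) and at 39.1, 27.8, 20.6, 26.3 and 25.6 TPM with EGCG (27.9 ± 6.82, n = 5), a difference of -2.04 (SE 0.22) without overlap. In Th17p Div.1 it was at 40.7, 68.4, 47.1 and 56.1 TPM with DMSO (53.1 ± 12.01, n = 4) and at 31.2, 26.7, 27.1, 33.9 and 19.4 TPM with EGCG (27.7 ± 5.52, n = 5), a difference of -0.91 (SE 0.24). Here too every EGCG library lay below every DMSO library.

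In Th17n Total, MT2 was at 98.1, 89.4, 91.9, 85.2 and 74.5 TPM with DMSO (87.8 ± 8.78, n = 5) and at 109, 119, 109, 115 and 80.9 TPM with EGCG (107 ± 14.98, n = 5). The difference was 0.27 (SE 0.22), and the ranges overlapped through the lowest EGCG library. In Th17n Div.1 the DMSO values were 56.3, 57.4, 79.4 and 45.5 TPM (59.7 ± 14.2, n = 4) and the EGCG values 122, 105, 110, 116 and 77.05 TPM (106 ± 17.5, n = 5), a difference of 0.83 (SE 0.24). Of those EGCG libraries, 77.05 TPM was the single one under the highest DMSO value of 79.4 TPM.

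So with EGCG the mean MT2 change was negative in Th17p and positive in Th17n in both sorts. The mean MT1 change was negative throughout. In 2 of these the 95% interval included no change: MT1 in Th17n Div.1 (-0.42 to 0.23) and MT2 in Th17n Total (-0.17 to 0.72). The differences between conditions were not tested, because the choice of the genes used the EGCG contrast. SLC30A1 differed by -0.01 (95% interval -0.19 to 0.16), -0.01 (-0.19 to 0.18), -0.06 (-0.23 to 0.12) and -0.03 (-0.22 to 0.16) in Th17p Total, Th17p Div.1, Th17n Total and Th17n Div.1, always with overlapping libraries. MTF1 differed by 0.12 (-0.05 to 0.29), 0.14 (-0.03 to 0.32), 0.06 (-0.11 to 0.22) and 0.12 (-0.05 to 0.30) in the same order, also with overlap.

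Over all tested genes, EGCG left a larger share higher than lower. In Th17p Total 30.1% of genes were called higher and 14.9% lower at an adjusted p under 0.05 (limma, Benjamini-Hochberg), in Th17p Div.1 33.7% and 11.9%, in Th17n Total 21.7% and 13.5%, and in Th17n Div.1 28.1% and 6.77%. The tilt depended on how the libraries were scaled. Median-ratio rescaling centres the typical gene near no change, so a more even share follows from it. Whether the tilt was a matter of scale or a broad shift was not tested. After each library was rescaled by its median ratio, the share of calls that were higher went from 66.9% to 52.6%, from 73.9% to 52%, from 61.7% to 49.9% and from 80.6% to 49.6% in the same order. The median of all genes shifted by over 0.1 in 2 comparisons with EGCG, by -0.10 in Th17p Div.1 and by -0.11 in Th17n Div.1. In the rescaled fit the MT1 differences were -1.40 and -0.22 and the MT2 differences -1.03 and 0.70 in those groups.

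**Figure D2:**
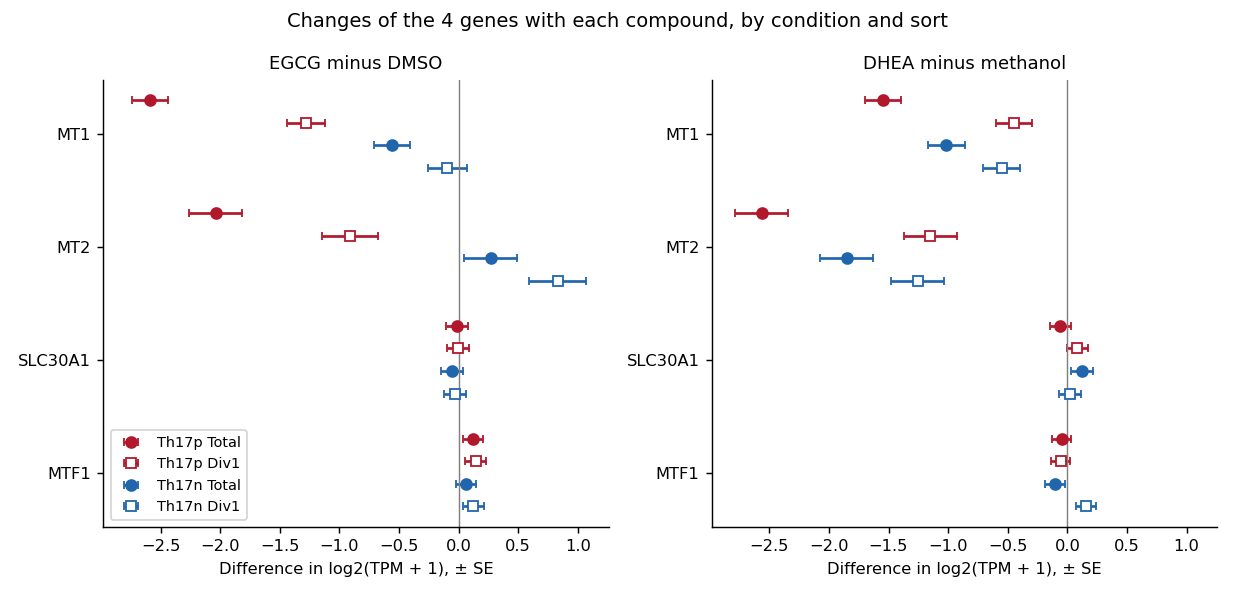
Difference in log2(TPM + 1) between compound and solvent for the 4 genes, with EGCG on the left and DHEA on the right; red is Th17p, blue Th17n, filled circles Total, open squares Div.1, and whiskers the SE. MT2 is to the right of 0 with EGCG in both Th17n groups and to the left of 0 in all 4 groups with DHEA, while SLC30A1 and MTF1 stay near 0.

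With DHEA both metallothioneins fell in both conditions and both sorts. The DHEA libraries did not enter the choice of the genes, but the methanol libraries did, through the sort difference in the solvents. MT1 and MT2 therefore have no test against methanol, and their values are a description. In Th17p Total, MT2 was at 69.6, 73.3, 82.1, 66.8 and 46.1 TPM with methanol (67.6 ± 13.3, n = 5) and at 10.7, 9.36, 11.3, 13.4 and 7.89 TPM with DHEA (10.5 ± 2.09, n = 5). MT1 in the same libraries was at 212, 257, 200, 224 and 182 TPM with methanol (215 ± 28.3, n = 5) and at 65.6, 84.7, 65.1, 87.2 and 63.6 TPM with DHEA (73.2 ± 11.7, n = 5). Neither gene's ranges overlapped, in 5 of 5 DHEA libraries. MT2 fell by 2.56 on the log2 scale (SE 0.22), 5.92-fold, and MT1 fell by 1.55 (SE 0.15), 2.92-fold. DHEA moved 20.9% of all tested genes up and 26.8% down in this comparison.

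In Th17n Total, where 20.8% of genes were called higher and 25.3% lower, the pattern was alike in direction. MT2 was at 51.2, 71.8, 70.8, 90.1 and 45.6 TPM with methanol (65.9 ± 17.8, n = 5) and at 16.1, 15.1, 22.8, 16.01 and 16.1 TPM with DHEA (17.2 ± 3.12, n = 5). MT1 was at 171, 190, 158, 216 and 141 TPM with methanol (175 ± 29.2, n = 5) and at 99.7, 77.8, 101.0, 75.995 and 75.6 TPM with DHEA (86.0 ± 13.1, n = 5). No DHEA library reached the lowest methanol library for either gene. MT2 fell by 1.85 (SE 0.22) and MT1 fell by 1.01 (SE 0.15).

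Cells sorted after 1 division showed smaller differences with DHEA. In Th17p Div.1, MT2 was at 20.4, 26.8, 48.5, 23.1 and 17.7 TPM with methanol (27.3 ± 12.3, n = 5) and at 7.47, 9.25, 6.44, 21.95 and 15.6 TPM with DHEA (12.1 ± 6.53, n = 5). MT1 was at 91.3, 126, 153, 118 and 89.4 TPM with methanol (116 ± 26.5, n = 5) and at 71.3, 100.7, 60.99, 97.9 and 90.7 TPM with DHEA (84.3 ± 17.4, n = 5). Both genes overlapped between the groups. MT2 fell by 1.15 (SE 0.22) and MT1 fell by 0.45 (SE 0.15), where 18.1% of all genes were called higher and 19.2% lower. The MT1 difference was smaller without methanol replicate 8 (-0.34) and without DHEA replicate 8 (-0.34).

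In Th17n Div.1, MT2 was at 39.45, 36.9, 52.3, 83.1 and 31.3 TPM with methanol (48.6 ± 20.8, n = 5) and at 21.3, 19.9, 15.5, 22.3 and 15.1 TPM with DHEA (18.8 ± 3.33, n = 5). MT1 was at 138, 137, 125, 192 and 89.1 TPM with methanol (136 ± 37.02, n = 5) and at 102, 83.7, 89.0, 104 and 75.2 TPM with DHEA (90.8 ± 12.2, n = 5). MT2 did not overlap and MT1 did. MT2 fell by 1.25 (SE 0.22) and MT1 fell by 0.55 (SE 0.15), where 22.1% of genes were called higher and 14.6% lower.

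The DHEA changes of Th17p and Th17n were compared directly. The change was more negative in Th17p Total than in Th17n Total by 0.53 for MT1 (difference -0.53, SE 0.22) and by 0.72 for MT2 (difference -0.72, SE 0.31), where 14.8% of all genes passed in either direction. In Div.1 the differences were 0.10 for MT1 (95% interval -0.33 to 0.53) and 0.10 for MT2 (interval -0.52 to 0.73), where 15.9% of genes passed. MT1 and MT2 have no test here, because methanol libraries of both conditions entered the choice of the genes through the sort difference. Between the sorts, the DHEA change of MT1 was less negative in Div.1 than in Total by 1.10 in Th17p (SE 0.22) and by 0.46 in Th17n (SE 0.22), and that of MT2 by 1.41 (SE 0.31) and 0.59 (SE 0.31). No test is given for these, since the methanol part of them is the sort difference that the choice of genes used.

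SLC30A1, which was kept only through Th17n libraries with DHEA or methanol, is given with no test. It differed between DHEA and methanol by -0.06 in Th17p Total, 0.08 in Th17p Div.1, 0.12 in Th17n Total and 0.02 in Th17n Div.1. Its 95% intervals lay between -0.24 and 0.30, and its values lay near the 1 TPM filter, where the pseudocount shrinks differences. MTF1 passed in none of the 4 comparisons and differed by -0.05 (adjusted p = 0.664), -0.06 (adjusted p = 0.632), -0.11 (adjusted p = 0.311) and 0.16 (adjusted p = 0.131) in the same order. Without Th17n DHEA Div.1 replicate 8 the last of these was 0.22 (adjusted p = 0.0416).

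Markers of other cells differed between the same groups. The summed level of 7 CD8 T and NK cell markers was 14.9 to 23.2 TPM in Th17p methanol Total and 22.6 to 31.3 TPM in Th17p DHEA Total, and 17.8 to 25.9 TPM against 31.3 to 45.8 TPM in Th17n Total. With EGCG it was 19.4 to 31.9 TPM against 9.61 to 15.01 TPM in DMSO in Th17p Total, and 14.1 to 22.8 TPM against 11.2 to 20.4 TPM in Th17n Total. CD8A, which defines CD8 T cells, was at 0 in 4 libraries and never above 0.557 TPM, while CD8B1 ran from 3.41 to 26.9 TPM and NKG7 from 0 to 22.9 TPM. The sum of 6 B cell markers was at most 1.85 TPM in Th17n methanol Total and between 2.28 and 5.61 TPM with DHEA, while MS4A1, one of them, was at 0 in 72 libraries. The sum of 10 T cell and Th17 markers, IL17F among them, was 5513 to 6976 TPM in Th17n methanol Total and 2101 to 2868 TPM with DHEA. The part of these in the metallothionein results was not tested.

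**Figure D3:**
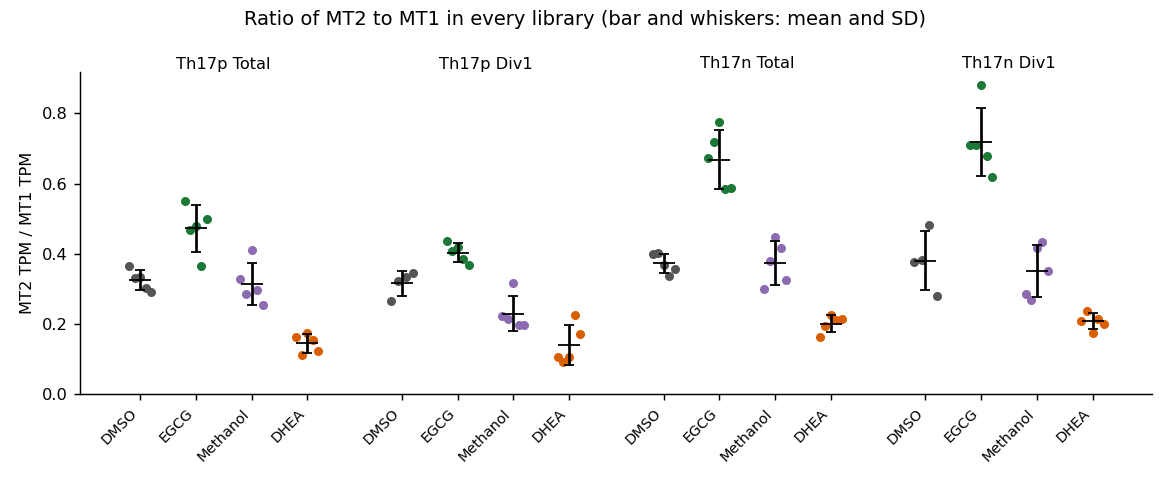
Ratio of MT2 TPM to MT1 TPM in each library, by condition, sort and treatment; points are libraries, bars and whiskers the mean and SD of 4 or 5 libraries. EGCG groups sit above and DHEA groups below the solvents in each condition and sort.

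Because MT1 and MT2 are usually induced together, their ratio was taken within each library. In solvent groups the mean ratio of MT2 to MT1 lay at 0.324 ± 0.0286 (SD, n = 5) in Th17p DMSO Total, 0.316 ± 0.0358 (n = 4) in Th17p DMSO Div.1, 0.372 ± 0.0271 (n = 5) in Th17n DMSO Total and 0.380 ± 0.0834 (n = 4) in Th17n DMSO Div.1. Methanol groups were at 0.315 ± 0.0599, 0.229 ± 0.0497, 0.373 ± 0.0618 and 0.351 ± 0.0744 (n = 5 each). With EGCG the ratio was 0.472 ± 0.0670, 0.403 ± 0.0270, 0.668 ± 0.0829 and 0.719 ± 0.0973 (n = 5 each), so that MT2 made up more of the pair. With DHEA it was 0.145 ± 0.0269, 0.140 ± 0.0567, 0.201 ± 0.0245 and 0.207 ± 0.0228 (n = 5 each), so that MT2 made up less. The compounds thus lay on opposite sides of their solvents in each condition and sort, a description with no test.

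Across libraries, the deviations of MT1 and MT2 from their group means went together (Pearson's r 0.75, Spearman's rho 0.71, 78 libraries, 0.71 for r without the 2 libraries farthest out), and so did the 16 group means (r 0.83). Libraries share well columns, and this is a description. MT1 lay above its group mean in 7 of 7 libraries of well column 4 and in 7 of 8 of column 9, but in 0 of 7 of column 5 and 1 of 8 of column 10. MT2 lay above it in 6 of 8 libraries of column 9, in 1 of 7 of column 5 and in 1 of 8 of column 10. The deviations of the other pairs among the 4 genes had r between 0.06 and 0.15.

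The sort for division went with lower metallothionein levels in the solvent groups, a contrast that the choice of genes also used. MT1 in Div.1 differed from Total by -1.005 (SE 0.11) in Th17p and -0.48 (SE 0.11) in Th17n over both solvents, and MT2 by -1.23 (SE 0.16) and -0.52 (SE 0.16). Taken by treatment, the Th17p difference for MT1 was -1.10 in DMSO and -0.91 in methanol but 0.21 in EGCG and 0.19 in DHEA. For MT2 it was -1.13 and -1.34 in the solvents and 0.00 and 0.07 with the compounds. In Th17n the MT1 differences were -0.58, -0.38, -0.12 and 0.08 and the MT2 differences -0.57, -0.48, -0.01 and 0.12 in the order DMSO, methanol, EGCG and DHEA. Total and Div.1 libraries of the same condition overlapped for both genes in the groups with a compound. They also overlapped in 4 of the 8 solvent comparisons, namely MT1 in Th17n methanol and MT2 in Th17p methanol, Th17n DMSO and Th17n methanol. SLC30A1 differed between the sorts by -0.13 in Th17p and 0.05 in Th17n, and MTF1 by -0.03 in each (SE 0.06 for all 4).

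Pathogenic and non-pathogenic cells were compared over both solvents. The solvent libraries entered the contrasts that chose MT1 and MT2, so the values of those 2 genes are a description with no test. In Total, where 30.9% of genes were called higher and 26.5% lower in Th17p, MT1 differed by 0.45 (SE 0.11). The libraries did not overlap in DMSO (difference 0.60) and did in methanol (0.30). MT2 differed by 0.22 (interval -0.09 to 0.54). In Div.1, where 34.9% were called higher and 25.7% lower, MT2 differed by -0.49 (SE 0.17), with -0.16 in DMSO and -0.81 in methanol and overlapping libraries in both. MT1 differed there by -0.07 (interval -0.30 to 0.16).

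MTF1 was slightly higher in Th17p, by 0.20 in Total (SE 0.06, adjusted p = 0.00209) and by 0.20 in Div.1 (SE 0.06, adjusted p = 0.00424). Its Th17p methanol Total mean was 3.63 ± 0.216 TPM (n = 5) against 2.86 ± 0.168 TPM (n = 5) in Th17n, without overlap. With DMSO the means were 3.31 ± 0.286 TPM and 2.90 ± 0.480 TPM (n = 5 each), with overlap. SLC30A1 differed by 0.03 in Total (interval -0.10 to 0.16) and by -0.14 in Div.1 (interval -0.28 to -0.01). It has no test here, since it was kept only through Th17n libraries in which it was high.

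With EGCG the conditions are given side by side, with no test. MT1 in Th17p lay below Th17n by a difference of -1.43 in Total and -1.11 in Div.1, and MT2 by -1.92 and -1.91, in each case without overlap. With DHEA the MT1 differences were -0.23 and -0.12, with overlap, and those of MT2 -0.66 in Total, without overlap, and -0.71 in Div.1, with overlap.

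**Figure D4:**
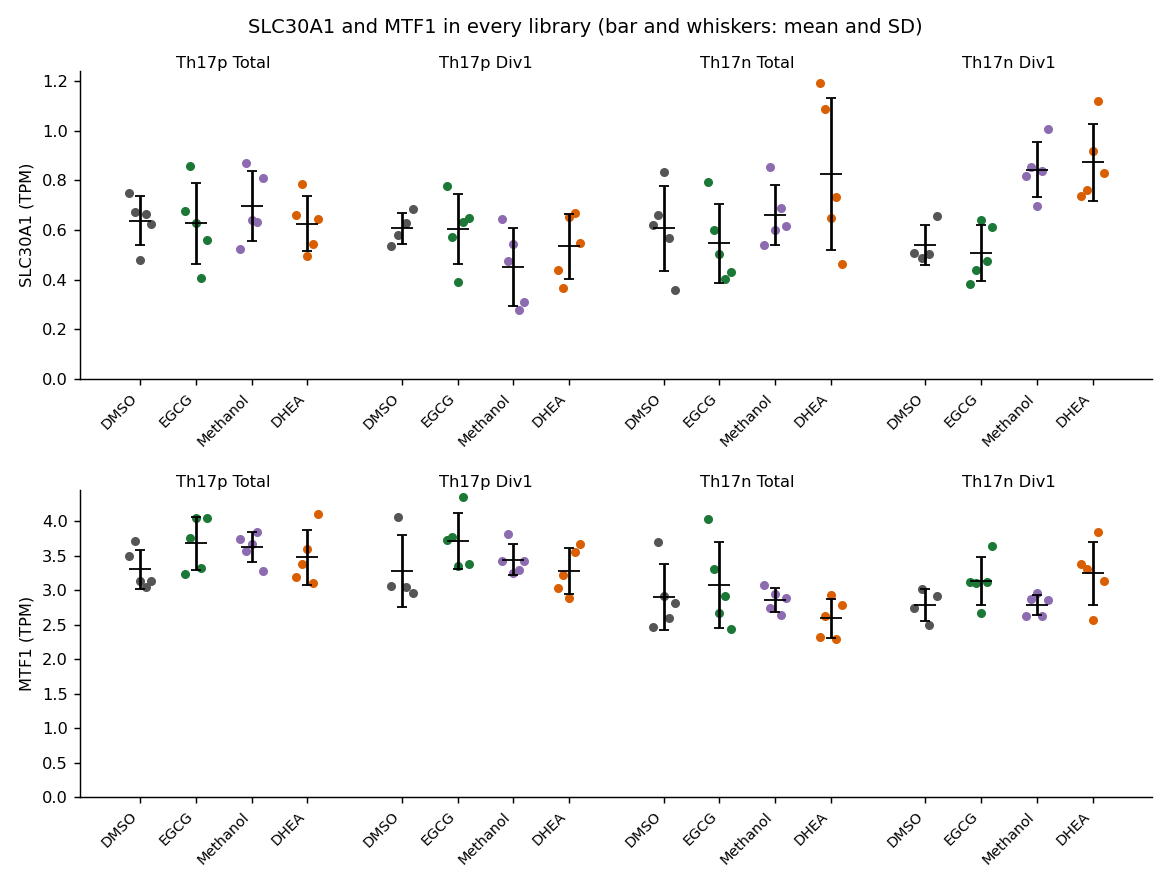
TPM of SLC30A1 (top) and MTF1 (bottom) in each of the 78 libraries, by condition, sort and treatment; points are libraries, bars and whiskers the mean and SD of 4 or 5 libraries. SLC30A1 stays under 1.2 TPM throughout, and MTF1 between 2.30 and 4.36 TPM with the Th17p solvent means above the Th17n ones.

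Between the solvents themselves the metallothioneins were not level. Methanol and DMSO libraries share no well column, so solvent and column cannot be told apart, and the DMSO libraries are the baseline of the EGCG contrast that chose MT1 and MT2. No test is therefore given for those 2 genes. In Th17p Total MT1 differed by -0.73 (SE 0.15) and MT2 by -0.78 (SE 0.22), both lower in methanol without overlap, where 6.83% of genes passed in either direction. In Th17p Div.1, where 4.74% passed, MT1 differed by -0.55 (SE 0.16) and MT2 by -0.998 (SE 0.24), with overlap.

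In Th17n the libraries of the 2 solvents overlapped for both genes. MT1 differed by -0.44 in Total (SE 0.15) and -0.24 in Div.1 (SE 0.16), and MT2 by -0.44 (SE 0.22) and -0.35 (SE 0.24), where 6.66% and 6.1% of genes passed. SLC30A1 in Th17n Div.1 was at 0.843 ± 0.111 TPM (n = 5) with methanol and 0.539 ± 0.0801 TPM (n = 4) with DMSO, without overlap, a difference of 0.26 (SE 0.09). After rescaling, the share of calls that were higher in methanol went from 55.5% to 69.7% in Th17p Div.1 and from 80.2% to 59% in Th17n Div.1.

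The other metallothionein genes were barely present. MT3, the form known from brain, had group means of 0 to 0.770 TPM, and MT4, known from squamous epithelium, 0 to 0.267 TPM, and MT4 did not pass the filter. MT3 passed the filter only through Th17p solvent libraries, the higher side of both differences that follow, so it is given with no test. It was lower with DHEA in Th17p Total (-0.56, SE 0.19) and higher in Th17p than Th17n in Total (0.55, SE 0.13), both at group means under 1 TPM.

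**Figure D5:**
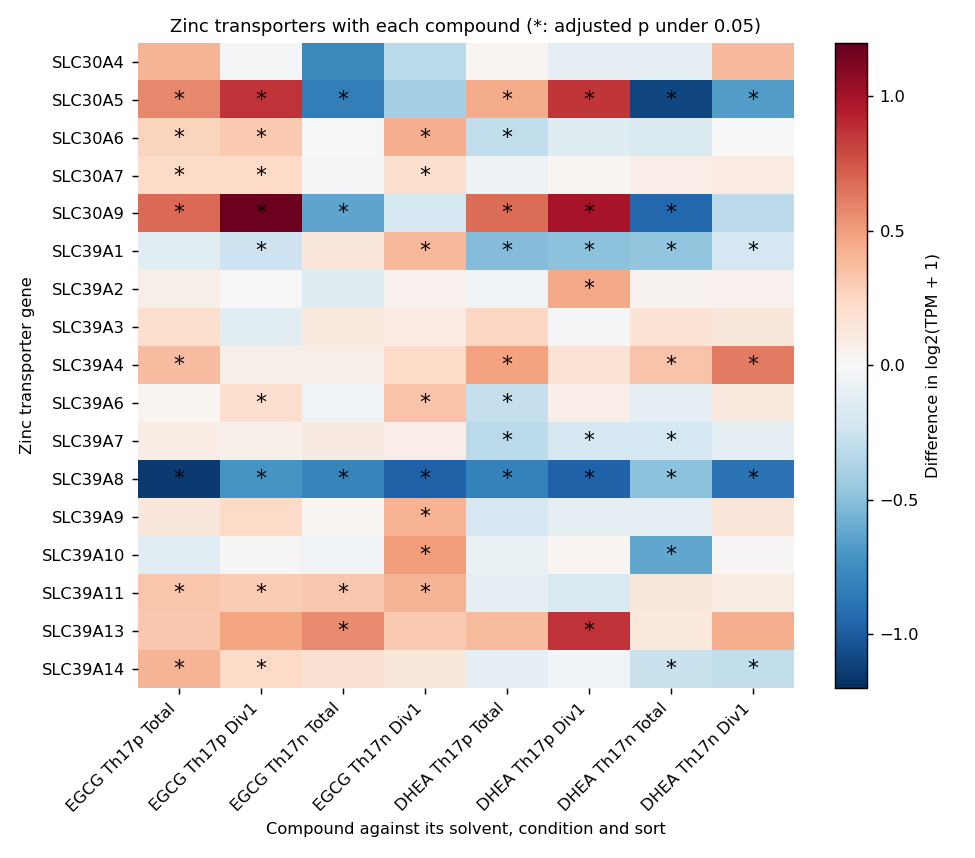
Difference in log2(TPM + 1) between compound and solvent for the 17 zinc transporter genes tested, with the SLC30 family above and the SLC39 family below. Colour gives the difference from -1.2 to 1.2 and a star an adjusted p under 0.05. SLC39A8 is lower in all 8 columns, and SLC30A5 and SLC30A9 are higher in the Th17p columns and lower or not called in the Th17n columns.

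The zinc transporters were read next to the metallothioneins. Most transporters of the SLC30 family move zinc out of the cytoplasm, and those of the SLC39 family bring it in. Counts in these lists stand beside the share of all genes called: with EGCG 30.1% higher and 14.9% lower in Th17p Total, 33.7% and 11.9% in Th17p Div.1, 21.7% and 13.5% in Th17n Total and 28.1% and 6.77% in Th17n Div.1. With DHEA these shares were 20.9% and 26.8%, 18.1% and 19.2%, 20.8% and 25.3%, and 22.1% and 14.6%. Of 9 SLC30 genes other than SLC30A1, 5 were tested. With EGCG, 4 of the 5 rose and 0 fell in Th17p Total (median 0.41 against 0.09 over all genes) and in Th17p Div.1 (median 0.32 against 0.12). In Th17n Total 0 rose and 2 fell (median -0.64 against 0.05), and in Th17n Div.1 2 rose and 0 fell (median -0.21 against 0.11). After rescaling 2 of the 4 in Th17p Div.1 passed, and in Th17n Div.1 1 rose and 1 fell.

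SLC30A5 and SLC30A9 carried that pattern. SLC30A5, which with SLC30A6 loads zinc into enzymes of the secretory pathway, rose with EGCG by 0.57 in Th17p Total (SE 0.18, adjusted p = 0.00612) and by 0.86 in Th17p Div.1 (SE 0.19, adjusted p = 0.00011). It fell by 0.83 in Th17n Total (SE 0.18, adjusted p = 0.000166). SLC30A9 rose by 0.68 (SE 0.20, adjusted p = 0.0046) and 1.17 (SE 0.22, adjusted p = 6.13e-06) in Th17p and fell by 0.64 in Th17n Total (SE 0.20, adjusted p = 0.0109). SLC30A6 and SLC30A7, a Golgi transporter, rose by 0.27 (adjusted p = 0.00621) and 0.23 (adjusted p = 0.00184) in Th17p Total.

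With DHEA, SLC30A5 and SLC30A9 were again called higher in Th17p and lower in Th17n Total. In Th17p Total 2 of the 5 rose and 1 fell (median 0.02 against -0.02), in Th17p Div.1 2 rose and 0 fell (0.02 against 0.00), in Th17n Total 0 rose and 2 fell (-0.17 against -0.01), and in Th17n Div.1 0 rose and 1 fell (0.00 against 0.05). SLC30A5 rose by 0.45 (adjusted p = 0.0317) and 0.85 (adjusted p = 7.87e-05) in Th17p Total and Div.1 and fell by 1.09 (adjusted p = 4.84e-07) and 0.67 (adjusted p = 0.00175) in Th17n. SLC30A9 rose by 0.67 (adjusted p = 0.0047) and 0.99 (adjusted p = 6.7e-05) in Th17p and fell by 0.94 in Th17n Total (adjusted p = 8.12e-05). SLC30A6 fell by 0.30 in Th17p Total (adjusted p = 0.00189).

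Of 14 SLC39 genes 12 were tested, and SLC39A8 was the one called lower with both compounds in both conditions and both sorts. SLC39A8 (ZIP8) imports zinc across the plasma and lysosomal membranes of T cells. It was at 20.4 ± 1.96 TPM in Th17p DMSO Total and 8.71 ± 1.37 TPM with EGCG, and at 55.6 ± 7.76 and 32.7 ± 9.54 TPM in Th17n Total (n = 5 each). With EGCG it fell by 1.15 (SE 0.14, adjusted p = 1.51e-10), 0.70 (SE 0.15, adjusted p = 5.09e-05), 0.80 (SE 0.14, adjusted p = 4.16e-06) and 0.97 (SE 0.15, adjusted p = 1.89e-07) in Th17p Total, Th17p Div.1, Th17n Total and Th17n Div.1. With DHEA it fell by 0.81 (adjusted p = 1.01e-06), 0.97 (adjusted p = 3.15e-08), 0.49 (adjusted p = 0.00238) and 0.88 (adjusted p = 3.72e-07) in that order. It was also lower in Th17p than in Th17n, by a difference of -1.62 in Total (SE 0.10, adjusted p = 6.58e-24) and -2.08 in Div.1 (SE 0.10, adjusted p = 3.06e-28).

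With EGCG more SLC39 genes rose than fell in each comparison: 3 rose and 1 fell in Th17p Total, 3 and 2 in Th17p Div.1, 2 and 1 in Th17n Total and 5 and 1 in Th17n Div.1, with medians of 0.11, 0.07, 0.09 and 0.27 against 0.09, 0.12, 0.05 and 0.11 over all genes. After rescaling the counts were 2 and 2 in Th17p Total, 0 and 2 in Th17p Div.1, 2 and 1 in Th17n Total and 5 and 1 in Th17n Div.1. Over all genes the rescaled shares called higher and lower were 23.5% and 21.1%, 22.8% and 21%, 17.9% and 17.9%, and 15.4% and 15.7% in that order. The lean thus stayed in Th17n Div.1 alone, and the counts of Th17n Total lay near those shares. SLC39A11 rose in all 4 groups, by 0.34 (adjusted p = 0.00107), 0.30 (adjusted p = 0.00505), 0.32 (adjusted p = 0.00256) and 0.41 (adjusted p = 0.000282), but the call in Th17p Div.1 was lost on rescaling (adjusted p = 0.0692).

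With DHEA, 1 of the 12 SLC39 genes rose and 4 fell in Th17p Total, 2 and 3 in Th17p Div.1, 1 and 5 in Th17n Total and 1 and 3 in Th17n Div.1, with medians of -0.12, -0.02, -0.11 and 0.07 against -0.02, 0.00, -0.01 and 0.05. In all genes 26.8%, 19.2%, 25.3% and 14.6% were called lower, and the counts are near those shares in Th17p. The last median is positive although more members fell than rose. SLC39A1 (ZIP1), a plasma membrane importer and with the endoplasmic reticulum transporter SLC39A7 the most abundant of the family by group mean, fell by 0.52 (adjusted p = 1.37e-09), 0.50 (adjusted p = 1.28e-08), 0.47 (adjusted p = 2.07e-08) and 0.21 (adjusted p = 0.00981). SLC39A10 fell by 0.63 in Th17n Total (adjusted p = 8.84e-07), and SLC39A4 rose by 0.48 (adjusted p = 0.00385), 0.34 (adjusted p = 0.0421) and 0.63 (adjusted p = 0.00031) in Th17p Total, Th17n Total and Th17n Div.1.

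Between the conditions, 1 SLC30 gene was higher and 1 lower in Th17p in Total and 1 and 2 in Div.1, and 4 SLC39 genes were higher and 4 lower in Total and 5 and 3 in Div.1. Over all genes 30.9% were called higher and 26.5% lower in Total, and 34.9% and 25.7% in Div.1. Between the sorts, 8.63% of all genes were called higher and 10.8% lower in Th17p Div.1 and 5.8% and 16.1% in Th17n Div.1, and the share of calls that were higher in Th17n went from 26.5% to 47.5% on rescaling. SLC30A5 (-0.49, adjusted p = 0.00388) and SLC30A9 (-0.51, adjusted p = 0.00925) were lower in Th17p Div.1 than in Total, and SLC39A10 was lower in Th17n Div.1 (-0.44, adjusted p = 1.06e-05).

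Genes that glucocorticoids induce were counted because metallothionein genes belong to that class. With DHEA, 5 of 8 tested rose and 1 fell in Th17p Total (median 0.39 against -0.02), 2 and 1 in Th17p Div.1 (0.17 against 0.00), 5 and 0 in Th17n Total (0.45 against -0.01) and 4 and 1 in Th17n Div.1 (0.30 against 0.05), where 20.9%, 18.1%, 20.8% and 22.1% of all genes were called higher. DUSP1, a phosphatase that switches off MAP kinases, rose by 0.71 (adjusted p = 6.66e-08), 0.89 (adjusted p = 4.14e-10), 1.17 (adjusted p = 1.34e-14) and 1.14 (adjusted p = 9.29e-14). DDIT4, an inhibitor of mTORC1, rose by 0.96 (adjusted p = 1.59e-05), 1.15 (adjusted p = 9.54e-07), 0.69 (adjusted p = 0.0018) and 0.99 (adjusted p = 1.75e-05). TSC22D3, which encodes GILZ, rose in Th17n by 1.18 in Total (adjusted p = 1.68e-07) and 0.91 in Div.1 (adjusted p = 6.07e-05) and was at 0.19 and 0.01 in Th17p. With EGCG, 3 rose and 3 fell, 2 and 4, 1 and 1, and 2 and 2 in the order Th17p Total, Th17p Div.1, Th17n Total and Th17n Div.1. Over all genes 30.1%, 33.7%, 21.7% and 28.1% were called higher and 14.9%, 11.9%, 13.5% and 6.77% lower. The means of DUSP1 and DDIT4 were higher with EGCG than with DMSO in each group too. In Th17p Total DDIT4 was at 14.4 ± 2.87 TPM with DMSO and 39.2 ± 8.46 TPM with EGCG, and DUSP1 at 13.9 ± 1.58 and 20.55 ± 2.32 TPM (n = 5 each).

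Targets of NRF2, the oxidative stress factor, were mixed. With EGCG 0 of 10 rose and 5 fell in Th17p Total (median -0.16 against 0.09), 2 and 2 in Th17p Div.1, 1 and 5 in Th17n Total and 2 and 1 in Th17n Div.1, where rescaling gave 0 and 3 in Th17p Div.1 and 0 and 5 in Th17n Div.1. G6PDX, the first enzyme of the pentose phosphate pathway, fell by 0.49 in Th17p Total (adjusted p = 9.56e-11). With DHEA 1 rose and 3 fell, 3 and 1, 1 and 6, and 1 and 4 in the same order, and TXNRD1, thioredoxin reductase, fell by 0.80 in Th17n Total (adjusted p = 9.97e-12). In the solvents 7 of 10 were higher in Th17p in Total and 0 lower, where 30.9% of all genes were called higher and 26.5% lower. Over all genes 30.1%, 33.7%, 21.7% and 28.1% were called higher and 14.9%, 11.9%, 13.5% and 6.77% lower with EGCG. With DHEA the shares were 20.9%, 18.1%, 20.8% and 22.1% higher and 26.8%, 19.2%, 25.3% and 14.6% lower. Rescaled, those with EGCG were 22.8% and 21% in Th17p Div.1 and 15.4% and 15.7% in Th17n Div.1.

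MT1 and MT2 were set against the 5 coding genes on either side of MT1. Apart from MT2 itself, 7 of them were tested (OGFOD1, BBS2, MT3, NUP93, HERPUD1, NLRC5 and CPNE2). With EGCG 2 rose and 2 fell in Th17p Total, 1 and 2 in Th17p Div.1, 2 and 2 in Th17n Total and 0 and 0 in Th17n Div.1. With DHEA 2 rose and 4 fell in Th17p Total, 1 and 3 in Th17p Div.1, 1 and 2 in Th17n Total and 2 and 2 in Th17n Div.1. MT3 is among the 4 that fell in Th17p Total and passed the filter only through Th17p solvent libraries. Over all genes 30.1%, 33.7%, 21.7% and 28.1% were called higher and 14.9%, 11.9%, 13.5% and 6.77% lower with EGCG, and 20.9%, 18.1%, 20.8% and 22.1% higher and 26.8%, 19.2%, 25.3% and 14.6% lower with DHEA. HERPUD1, a gene of endoplasmic reticulum stress, fell with DHEA by 0.82 in Th17p Total (adjusted p = 6e-10) and NLRC5, the activator of MHC class I genes, rose by 1.201 (adjusted p = 1.93e-10). The lowest neighbour was at -0.82 in Th17p Total, above MT1 at -1.55, and at -0.56 in Th17p Div.1, below MT1 at -0.45.

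The genes whose 16 group means followed each member most closely were ranked by Pearson's r of log2(TPM + 1), among 8037 or 8038 genes with a group mean of at least 5 TPM. For MT1 these were DEPDC1A (r 0.92), RSRC2 (0.90), SLIRP (0.89), SKA1 (0.89) and HERPUD1 (0.88), and MT2 came 20th. For MT2 they were FRMD4B (0.92), FADS1 (0.90), ABCB6 (0.90), TRIM35 (0.90) and COPZ1 (0.89), and MT1 came 42nd. For MTF1 they were GGT7, MBNL1, DOCK11, NPEPPS and GALNT7 (each 0.92). For SLC30A1 they were PLCXD2 (0.76), UBE2B (0.76), LAIR1 (0.75), CPSF7 (0.74) and DNAJB6 (0.72), over values that varied little. The genes share their libraries, and no p is given.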

How the data were processed

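Polyadenylated RNA was sequenced. The submitters' processing notes name Trimmomatic, kallisto and mm10 and give no versions. The authors deposited 1 table of TPM per gene symbol and library, and how transcripts were summed to symbols is not stated. Columns summed to between 880077 and 895017 TPM. Groups came from the library titles, and replicate numbers are well columns.

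TPM were taken as log2(TPM + 1). The pseudocount of 1 makes fold changes of low genes too small. For 10672 genes with 1 TPM in at least 4 of 78 libraries, limma 3.58.1 (R 4.3.3) fitted 16 group means with a trend on mean expression. Tests were two-sided, adjusted by Benjamini-Hochberg over these genes within a comparison, and called at an adjusted p under 0.05. The procedure was tested on simulated data. Libraries of a group correlated across genes at r 0.976 to 0.993, so none were identical. P-values measure the spread between these libraries and take no account of the well columns that they share.

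The members and gene lists were chosen with earlier results of these data known. Members were not tested with EGCG or between sorts. Tests of MT1 and MT2 with DHEA, between solvents, between conditions and in the DHEA change between conditions, and of SLC30A1 and MT3, were planned. They are given without p, because the choice or the filter used those libraries. The differences of the DHEA change between sorts were planned as tests and are given without one, because they contain the sort contrast. Named genes were the members, up to 4 called genes of a list with the smallest p in a comparison, the 5 genes most like each member and the 5 neighbours on either side of MT1. A gene named for one comparison is also given in others. Predicted genes were passed over. Alternatives were a pseudocount of 0.1, no filter, median-ratio rescaling, only the groups compared, a block for well column, well A4 counted as labelled, and leaving out each library. Promoter windows came from RefSeq (all 4 members matched) and positions from GENCODE on mm10. Tables and figures were made in Python 3.11.15 (matplotlib 3.10.9, numpy 2.4.6, pandas 2.3.3). Some marker genes are not reported here.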

Additional observations from a re-analysis of the deposited data

Results flagged for a closer look

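Of 64 groups of 4 or 5 libraries examined gene by gene, 4 held a library far from the others. That is near the share of about 1 in 20 that chance gives, so the libraries are only listed. MT2 stood apart at 80.9 TPM in Th17n EGCG Total replicate 5 (low) and at 22.8 TPM in Th17n DHEA Total replicate 8 (high). SLC30A1 stood apart at 0.658 TPM in Th17n DMSO Div.1 replicate 4 (high), and MTF1 at 4.07 TPM in Th17p DMSO Div.1 replicate 2 (high).

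In Div.1 cells every EGCG library of Th17p lay below the mean of its DMSO group for MT2, and every EGCG library of Th17n lay above the mean of its own. The EGCG change of MT2 in Th17p minus that in Th17n was -1.74, and this difference was not tested, because the choice of genes used the EGCG contrast.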

How the results depend on the processing

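Of 388 values per gene under the alternatives, 373 of MT1, 381 of MT2, 378 of SLC30A1 and 380 of MTF1 kept their direction and side of the threshold, or for untested values moved by less than the spread between libraries. MT1 in Th17p Div.1 with DHEA was -0.45 in a fit of the groups alone and ran from -0.53 to -0.34 when single libraries were left out. For MT2 that range was -1.39 to -0.93. The direction turned when single libraries were left out for SLC30A1 with DHEA in Th17n Div.1 (-0.0239 to 0.0532), for SLC30A1 (-0.0088 to 0.099) and MTF1 (-0.0482 to 0.0613) between the solvents in Th17n Total, for MTF1 between the solvents in Th17n Div.1 (-0.04 to 0.0283), and for the DHEA change of Th17p minus Th17n in Div.1 of MT1 (-0.0291 to 0.246) and MT2 (-0.1312 to 0.3274), none of them called. The number of genes called between methanol and DMSO was 225 in Th17p Div.1, 370 in Th17n Total and 141 in Th17n Div.1 in fits of the groups alone, against 506, 711 and 651. It was 309 in Th17p Div.1 with well A4 counted as labelled, and with single libraries left out it ran from 331 to 471 in Th17p Div.1 and from 390 to 763 in Th17n Div.1. The cause was not tested.

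Of 134 pairs of libraries with the same well column in groups compared, 38 correlated over 0.1 across genes (range -0.04 to 0.32), and 100 of 134 correlated best with their own number. Libraries of a column thus shared part of their spread. Whether a column marks a mouse is not stated, and the main fits left the column out. With the well column as a replicate block the DHEA change of MT1 in Th17p minus Th17n in Total stayed at -0.53. Its SE was 0.17 there against 0.22 in the main fit. No call given here of MTF1 changed with the block. Depth is unknown with TPM, and SLC30A1, under 1.2 TPM, is the least certain of the 4.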

Other observations

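Genes of copper and iron handling, metals that metallothioneins also meet in the cell, were counted in the same way. The counts of both lists stand beside the share of all genes called higher and lower. With EGCG it was 30.1% and 14.9% in Th17p Total, 33.7% and 11.9% in Th17p Div.1, 21.7% and 13.5% in Th17n Total and 28.1% and 6.77% in Th17n Div.1. With DHEA it was 20.9% and 26.8%, 18.1% and 19.2%, 20.8% and 25.3%, and 22.1% and 14.6%. Of 12 copper genes tested, 5 rose and 2 fell with EGCG in Th17p Total, 4 and 1 in Th17p Div.1, 1 and 1 in Th17n Total and 2 and 0 in Th17n Div.1, but on rescaling the counts were 2 and 3, 1 and 2, 1 and 1, and 1 and 1. With DHEA 2 rose and 4 fell in Th17p Total, 1 and 3 in Th17p Div.1, 2 and 5 in Th17n Total and 1 and 3 in Th17n Div.1, and on rescaling 3 and 4, 1 and 4, 2 and 4, and 0 and 4. Over all genes the rescaled shares with EGCG were 23.5% and 21.1%, 22.8% and 21%, 17.9% and 17.9%, and 15.4% and 15.7% in the same order. With DHEA they were 24.3% and 23.7%, 19% and 19.8%, 24.4% and 22.8%, and 19% and 18.5%. COX11, which delivers copper to cytochrome oxidase, rose with EGCG in Th17p by 1.11 in Total and 1.57 in Div.1 and fell by 1.04 in Th17n Total. SCO1, another copper chaperone, fell with DHEA by 0.81 in Th17p Total and 0.37 in Th17n Total. SLC31A1, the copper importer, fell by 0.20 with EGCG in Th17p Total and rose by 0.34 in Th17n Div.1.

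Of 13 iron genes tested, 3 rose and 4 fell with EGCG in Th17p Total, 3 and 3 in Th17p Div.1, 3 and 2 in Th17n Total and 4 and 2 in Th17n Div.1, and on rescaling the counts were 1 and 7, 1 and 3, 3 and 4, and 3 and 4. With DHEA 3 rose and 2 fell, 2 and 2, 2 and 3, and 5 and 4 in the same order, and on rescaling 3 and 2, 4 and 2, 3 and 3, and 2 and 4. TFRC, the transferrin receptor, rose with EGCG by 1.01 in Th17n Div.1 and with DHEA by 0.56 there. FTL1, the ferritin light chain, rose with DHEA by 0.23, 0.13, 0.30 and 0.12, and the last of these did not pass on rescaling.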
